A study of Mus musculus with 8 samples.

Results

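The 10 genes described here belong to the epithelial antimicrobial and type 2 response, and their RNA was measured in small intestinal crypts, the glands at the base of the villi that house stem and Paneth cells. They were found by gene name, each matching 1 of the 55880 rows of the count table: Reg3a, Reg3b, Reg3g, Retnlb, Saa1, Saa3, Duox2, Duoxa2, Nos2 and Lcn2. The study compared 4 libraries labelled wild type (WT) with 4 labelled miR-29ab1-/-, that is, lacking miR-29a and miR-29b-1, all from C57BL/6N mice and, per the series title, before irradiation. The labels state neither age, sex nor litter, the structure of the knockout allele is not described in them, and nothing says whether each library came from its own animal, so p-values measure the spread between these libraries, which may be technical. Libraries held 13879472 to 17368666 counts.

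The small intestine limits bacteria at its surface with secreted proteins. REG3 lectins bind and kill bacteria and keep them away from the epithelium, DUOX2 with its maturation factor DUOXA2 makes hydrogen peroxide at the apical membrane, inducible nitric oxide synthase (Nos2) makes nitric oxide, and lipocalin 2 (Lcn2) binds bacterial siderophores and so withholds iron. Serum amyloid A proteins (Saa1, Saa3) are acute phase proteins that carry retinol and lipid. Most of these genes are known to be induced by IL-22, IL-6 or IL-17 through STAT3 and NF-kappaB, whereas Retnlb, the goblet cell product RELM-beta, is known for its induction by the type 2 cytokines IL-4 and IL-13 in worm infection.

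At the targeted locus, Mir29a had 0 counts in every library. Counts for Mir29b-1 were 2 to 7 per labelled knockout library and 0 in all wild-type ones. That is the opposite direction to a loss of this gene, but the labels do not describe the allele. The cause was not tested. The neighbouring noncoding RNAs Lncpint (1831 to 2608 counts against 11 to 16) and Gm27019 (227 to 327 counts against 0 in each wild-type library) separated the groups without overlap. Mature microRNAs were not analysed here, and groups are named by label below. The mature sequences of the 2 microRNAs named in the genotype, from RefSeq (GRCm38.p6, chromosome 6, minus strand), are shown with the seed, bases 2 to 8, in capitals, because the seed decides which transcripts hold a site.
mmu-miR-29a-3p: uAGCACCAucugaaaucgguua
mmu-miR-29b-3p: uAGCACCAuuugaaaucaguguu

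The seed is the same in both. Its complement TGGTGCT was looked for in every 3' UTR of at least 50 bases in GENCODE M21. It occurred in 3314 of 20866 genes (15.9%) and in 0 of the 10 genes described here. Their longest annotated 3' UTRs were short for 7 of them, from 140 bases in Retnlb to 491 in Duoxa2, and measured 505 bases in Nos2, 1193 in Duox2 and 1959 in Saa3. No match says only that these letters are absent from those stretches.

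The promoter windows of 2 pairs are shown because the genes of each pair varied together across the libraries. Reg3b and Reg3g are paralogs of 1 cluster on chromosome 6, and Duox2 and Duoxa2 lie head to head on chromosome 2. Each window is from RefSeq (GRCm38.p6) and runs from 250 bases before to 50 bases after the annotated start, read 5′ to 3′ along the gene. Capitals mark matches on either strand to TTCNNNGAA (the STAT motif), GGANTTTCC (a core of the NF-kappaB motif), GAAANNGAA (a core of the interferon-stimulated response element) and TATAAA (the TATA box).
Reg3b, chr6:78370635-78370934, plus strand: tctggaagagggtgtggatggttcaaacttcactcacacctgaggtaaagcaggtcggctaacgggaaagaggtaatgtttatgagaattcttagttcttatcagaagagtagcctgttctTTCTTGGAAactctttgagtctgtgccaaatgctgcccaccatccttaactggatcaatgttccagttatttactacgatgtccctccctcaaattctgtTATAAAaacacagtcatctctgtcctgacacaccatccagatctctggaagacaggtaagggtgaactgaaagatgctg
Reg3g, chr6:78468825-78469124, minus strand: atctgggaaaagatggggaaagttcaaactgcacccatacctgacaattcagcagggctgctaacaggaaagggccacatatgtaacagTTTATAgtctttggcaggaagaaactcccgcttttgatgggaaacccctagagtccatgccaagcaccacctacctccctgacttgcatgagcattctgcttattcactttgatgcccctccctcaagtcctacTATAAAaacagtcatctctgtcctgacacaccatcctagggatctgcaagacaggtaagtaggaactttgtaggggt
Duox2, chr2:122298178-122298477, minus strand: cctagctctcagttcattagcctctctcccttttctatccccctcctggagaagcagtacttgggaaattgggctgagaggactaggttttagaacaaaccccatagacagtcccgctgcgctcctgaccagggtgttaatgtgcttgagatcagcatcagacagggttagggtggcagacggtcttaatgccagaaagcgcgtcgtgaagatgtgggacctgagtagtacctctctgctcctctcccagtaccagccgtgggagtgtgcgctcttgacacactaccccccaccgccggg
Duoxa2, chr2:122298650-122298949, plus strand: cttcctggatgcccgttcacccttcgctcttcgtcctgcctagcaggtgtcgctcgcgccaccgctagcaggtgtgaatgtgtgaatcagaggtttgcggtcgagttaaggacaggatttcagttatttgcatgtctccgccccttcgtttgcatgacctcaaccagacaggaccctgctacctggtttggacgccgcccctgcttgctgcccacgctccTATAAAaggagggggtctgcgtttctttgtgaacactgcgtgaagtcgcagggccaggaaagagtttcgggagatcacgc

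The Reg3b and Reg3g windows were 68.1% identical in a global alignment (207 identical positions, 89 mismatches and 8 gap positions), and both hold a TATA box, starting 29 and 27 bases before the annotated start. Reg3b also holds the STAT motif TTCTTGGAA, starting 129 bases before the start, which the Reg3g window lacks in these letters. The gene start of Reg3b in the deposited table (78370657) lies inside this RefSeq window, upstream of its STAT and TATA matches. By that annotation both matches fall inside the gene. Reg3g holds a second TATA match on the opposite strand. The Duoxa2 window has a TATA box starting 30 bases before its start, and the Duox2 window held none of the 4 motifs. The annotated starts of the 2 DUOX genes are 673 bases apart, and the gene end of Duox2 in the deposited table (122298449) lies inside its RefSeq window, upstream of the RefSeq start at 122298227. Of 32817 promoter windows of this length, 8.29% held the STAT motif, 1.25% the NF-kappaB core, 8.55% the interferon core and 13.6% the TATA box. Of the 8 windows found for the 10 genes (Retnlb and Nos2 were not matched), the STAT motif occurred in Reg3b alone, the interferon core in Saa3 alone and the NF-kappaB core in none. No match says only that these letters are absent, since other forms of each motif were not searched. The interferon core did not overlap another motif in Saa3.

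In level per gene length (FPKM, mean of 8 libraries), Reg3b was the most abundant of the 10 genes. At 1579 FPKM it ranked 26th among all genes of the table. Reg3g followed at 328 FPKM and was lower than Reg3b in 8 of 8 libraries. Reg3a (87.2 FPKM), Duox2 (47.4) and Duoxa2 (41.6) came next. Reg3a lay below Reg3g in 6 of 8 libraries and above Duox2 in 5 of 8, so those neighbours changed places between libraries. Nos2 (10.7 FPKM) and Retnlb (9.62) were near each other, with Nos2 higher in 5 of 8 libraries. Saa1 (1.34), Lcn2 (0.163) and Saa3 (0.0575) were the lowest, and Lcn2 exceeded Saa3 in 5 of 8 libraries, at 54 and 18 counts over all libraries. The 10 genes thus ran from among the most abundant crypt transcripts to a few counts per library.

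**Figure D1:**
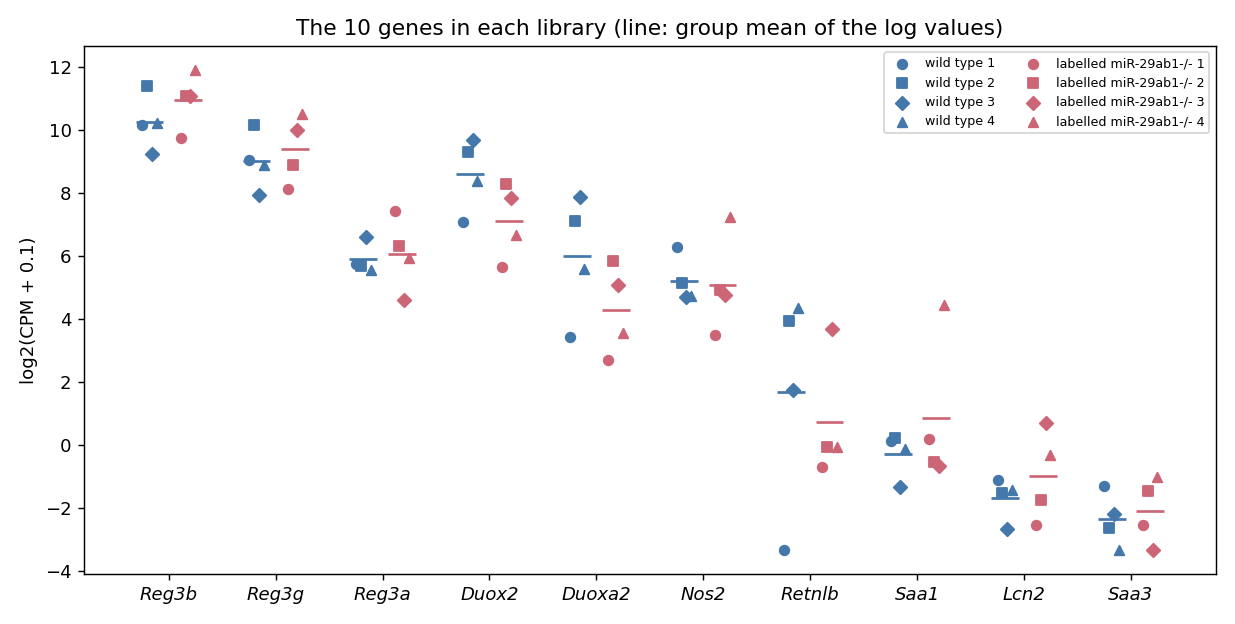
Level of each of the 10 genes in each library as log2 of counts scaled to library size (CPM) plus 0.1, ordered by mean FPKM, with wild-type libraries in blue and libraries labelled miR-29ab1-/- in red (symbols 1 to 4 are the replicate numbers) and a line at each group mean. The 2 groups overlap for every gene, and single libraries stand out for Saa1, Nos2 and Retnlb.

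None of the 10 genes differed between the labelled groups past the threshold. Of 8 that passed the expression filter, 0 had an adjusted p under 0.05 (edgeR quasi-likelihood test with Benjamini-Hochberg adjustment over 14897 genes), where 3 of the 14897 genes, 0.0201%, were called. The other two, Lcn2 and Saa3, did not pass the expression filter. DESeq2 called 24 of 15946 genes (0.151%), limma-voom 2 of 14897 (0.0134%) and the authors' deposited table held 21 calls among 26613 genes (0.0789%), and none of these calls was one of the 10. At an unadjusted p under 0.05, 1 of the 8 passed (Saa1), beside 402 of all tested genes, 2.7%. In none of the 10 were the groups separated without overlap, beside 228 of the tested genes, 1.53%. Of the 8, 5 were above 0 in log2 fold change and 3 below, with a median of 0.41 against 0.011 over all tested genes. Without labelled knockout replicate 4 that median was -0.51.

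**Figure D2:**
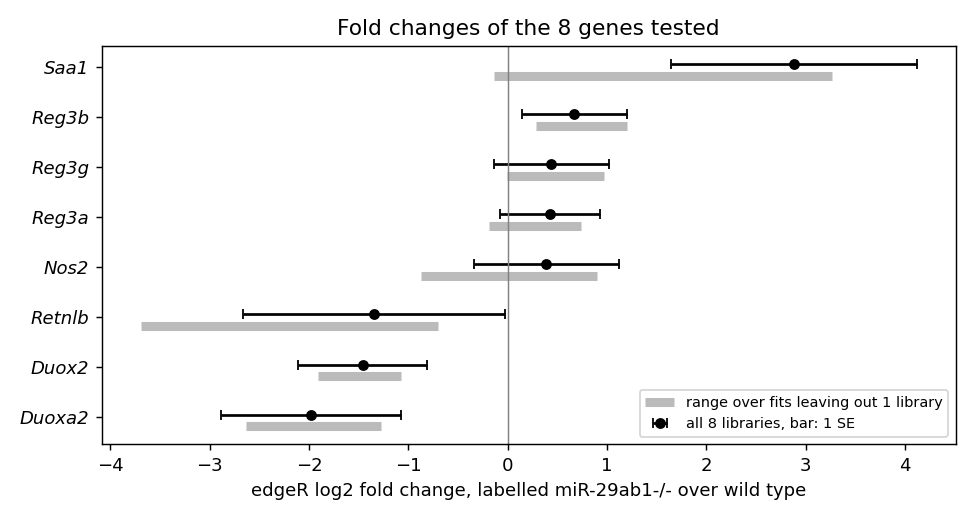
edgeR log2 fold change of the 8 genes tested, labelled miR-29ab1-/- over wild type, with 1 standard error (black) and the range over 8 fits that each left out 1 library (grey). The grey range crosses 0 for Saa1, Reg3g, Reg3a and Nos2 and stays on 1 side for Reg3b, Retnlb, Duox2 and Duoxa2.

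The REG3 lectins were high in both groups. Reg3b (ENSMUSG00000071356, chromosome 6, 78370657 to 78373466, plus strand) was at 1121, 2692, 601 and 1194 CPM in wild-type replicates 1 to 4 and at 846, 2130, 2144 and 3799 CPM in labelled knockout replicates 1 to 4. Labelled knockout replicates 2, 3 and 4 lay above wild-type replicates 1, 3 and 4, and the groups overlapped. The means were 2230 ± 1211 against 1402 ± 900 CPM (SD, n = 4 each), and edgeR put the log2 fold change at 0.67 (SE 0.53, adjusted p = 0.994). Reg3g (ENSMUSG00000030017, 78466269 to 78468872, minus strand), the lectin aimed at Gram-positive bacteria, was at 526, 1137, 244 and 465 CPM in the wild-type replicates and at 279, 472, 1012 and 1453 CPM in the labelled knockout replicates. edgeR put the log2 fold change at 0.44 (SE 0.58, adjusted p = 0.994). The groups overlapped, and without labelled knockout replicate 4 the Reg3g value was -0.0098 and the Reg3b value 0.28.

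Reg3b and Reg3g were high and low in the same libraries. Wild-type replicate 3 was lowest for both and labelled knockout replicate 4 highest for both. Over the 8 libraries Pearson's r of the log2 CPM was 0.928 (exact permutation p = 0.000818, adjusted p = 0.00205 over the 5 pairs of genes examined) and Spearman's rho 0.929 (exact permutation p = 0.00223, adjusted p = 0.00558). With group means removed r was 0.943 (exact permutation p = 0.00193, adjusted p = 0.00484). Leaving out the 2 libraries farthest from the Reg3b median, wild-type replicate 3 and labelled knockout replicate 4, r was 0.841 with an adjusted p = 0.0532 (exact permutation test, n = 6), so the call was lost. The level of Reg3g per length was 21.0% to 25.4% of that of Reg3b in the wild-type libraries and 12.0% to 25.5% in the libraries labelled knockout, with the lowest share in labelled knockout replicate 2. Paneth cells also make REG3 lectins, and their 10 markers summed to 20299 to 66556 CPM in the libraries labelled knockout and 23934 to 31354 CPM in the wild-type group. All 10 had a log2 fold change above 0 and 0 passed the threshold, with 1.39 (SE 0.50) for the defensin Defa21 and 0.89 (SE 0.40) for lysozyme Lyz1, both with an edgeR adjusted p = 0.994. The lowest sum was that of labelled knockout replicate 4, the library highest in Reg3b and Reg3g, and the part of Paneth cells in these values was not tested.

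Reg3a (ENSMUSG00000079516, 78380709 to 78383827, plus strand), the third lectin of the cluster, did not follow the other two. It was at 53.4, 51.1, 96.1 and 46.7 CPM in the wild-type replicates and at 170, 78.3, 24.3 and 60.5 CPM in the labelled knockout replicates. Wild-type replicate 3 and labelled knockout replicate 1, the lowest 2 libraries for Reg3b, were the highest 2 for Reg3a, and labelled knockout replicate 3 was the lowest. Against Reg3g its Pearson r was -0.68 over 8 libraries, given as a description of a pair picked after its values were seen. edgeR put the log2 fold change at 0.43 (SE 0.50, adjusted p = 0.994), and -0.19 without labelled knockout replicate 1. The 3 genes shared no stretch of 50 bases with a transcript of any other gene in GENCODE M21, so reads of that length can be assigned to 1 gene.

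The oxidase pair was lower on average in the libraries labelled knockout, by less than the test could call. Duox2 (ENSMUSG00000068452, chromosome 2, 122279247 to 122298449, minus strand) was at 133, 624, 812 and 332 CPM in the wild-type replicates and at 49.5, 311, 229 and 101 CPM in the labelled knockout replicates. Labelled knockout replicates 1 and 4 lay below every wild-type library, and the other 2 lay between wild-type replicates 1 and 4. The means were 173 ± 119 against 475 ± 302 CPM (SD, n = 4 each), a log2 fold change of -1.46 (SE 0.65), 2.75-fold, with an unadjusted p of 0.0516 and an adjusted p = 0.994 by edgeR. The exact two-sided permutation test on log2(CPM + 0.1) gave p = 0.114, where the smallest p of 70 arrangements is 0.0286. Duoxa2 (ENSMUSG00000027225, 122298900 to 122302885, plus strand), which carries DUOX2 to the membrane, was at 10.7, 137, 231 and 48.2 CPM in the wild-type replicates. In the labelled knockout replicates it was at 6.39, 56.3, 33.6 and 11.6 CPM, so the means were 27.0 ± 22.8 against 107 ± 98.2 CPM (SD, n = 4 each). Wild-type replicate 1 lay with the low libraries of the other group for both genes. The Duoxa2 log2 fold change was -1.98 (SE 0.91), 3.95-fold, with an unadjusted p of 0.0568 and an adjusted p = 0.994 by edgeR, and an exact permutation p = 0.229. Over the 14 alternatives computed, the value stayed below 0 for both, from -1.91 to -1.07 for Duox2 and from -2.63 to -1.28 for Duoxa2.

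Duox2 and Duoxa2 kept nearly the same order of libraries. Pearson's r of the log2 CPM was 0.982 (exact permutation p = 9.92e-05, adjusted p = 0.000496 over the 5 pairs) and Spearman's rho 0.952 (exact permutation p = 0.00114, adjusted p = 0.00558). Without labelled knockout replicate 1 and wild-type replicate 3, the libraries farthest from the Duox2 median, r was 0.984 (exact permutation adjusted p = 0.0208, n = 6). Spearman's rho was then 0.886 (exact permutation adjusted p = 0.0972), not past the threshold. With group means removed r was 0.982 (exact permutation adjusted p = 0.000496, n = 8). Duoxa2 spanned the wider range, 36.1-fold from lowest to highest library against 16.4-fold for Duox2. Its level per length ran from 34.3% of that of Duox2 in wild-type replicate 1 to 121% in wild-type replicate 3. Duoxa2 overlaps Duoxa1 on the opposite strand by 695 bases, and Duoxa1 had 149 counts over all libraries against 8695 for Duoxa2. Of the 50-base stretches of Duox2, 6.05% also occur in Duox1, which had 89 counts.

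**Figure D3:**
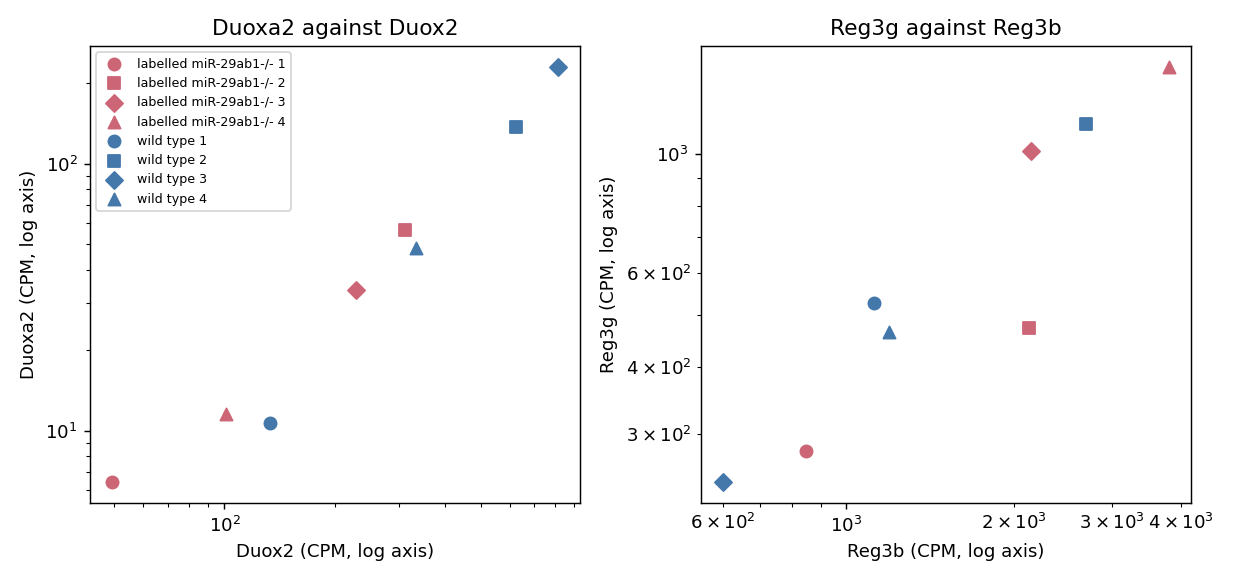
Duoxa2 against Duox2 and Reg3g against Reg3b, in CPM on log axes, 1 point a library (blue wild type, red labelled miR-29ab1-/-, symbols as replicate numbers). In both panels the points run from low left to high right and the groups overlap. For Duox2, labelled knockout replicates 1 and 4 are the lowest and wild-type replicates 2 and 3 the highest.

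No relation between the DUOX pair and the REG3 pair was detected over the 8 libraries. Reg3g against Duox2 gave a Pearson r of -0.034 (exact permutation p = 0.932, adjusted p = 0.932) and a Spearman rho of -0.24 (exact permutation p = 0.582, adjusted p = 0.582, n = 8), and r was -0.043 without wild-type replicate 2 and labelled knockout replicate 4. Wild-type replicate 3 had the highest Duox2 and the lowest Reg3g value, and wild-type replicate 2 was high for both.

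Nos2 (ENSMUSG00000020826, chromosome 11, 78920787 to 78960254, plus strand) stood out in single libraries. It was at 77.9, 34.8, 25.8 and 26.4 CPM in the wild-type replicates and at 11.02, 29.7, 26.6 and 149 CPM in the labelled knockout replicates. Labelled knockout replicate 4 was the highest and wild-type replicate 1 the next, while 5 libraries lay between 25.8 and 34.8 CPM. edgeR put the log2 fold change at 0.39 (SE 0.73, adjusted p = 0.994), and -0.87 without labelled knockout replicate 4. The 2 libraries high in Nos2 also had the highest summed CPM of the 11 T and innate lymphoid cell markers, 381 in wild-type replicate 1 and 348 in labelled knockout replicate 4, against 132 to 217 in the other 6. Within that list, the granzyme gene Gzma was at 162 and 75.8 CPM in these libraries and 35.6 to 84.4 CPM elsewhere. Trdc, the constant region of the T cell receptor delta chain, was at 1.25 to 2.73 CPM in the group labelled knockout and 3.70 to 4.85 CPM in wild type, without overlap (edgeR log2 fold change -1.05, SE 0.27, adjusted p = 0.994). The part of these cells in the Nos2 values was not tested, and in bulk RNA a change in the number of cells of a type and a change in RNA per cell cannot be told apart. The 10 macrophage markers, from another cell type that makes Nos2, summed to 19.2 to 42.9 CPM in the wild-type libraries and 21.6 to 25.0 CPM in those labelled knockout, with 32.3 in wild-type replicate 1 and 22.2 in labelled knockout replicate 4, and their defining marker Adgre1 was at 0.502 CPM or less. Of them, the complement gene C1qc was at 0.766 to 1.10 CPM in the group labelled knockout and 0.673 to 3.07 CPM in wild type, and the receptor gene Csf1r at 1.25 to 2.28 and 1.48 to 5.89 CPM.

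The acute phase genes were near the limit of detection outside 1 library. Saa1 (ENSMUSG00000074115, chromosome 7, 46740497 to 46742980, minus strand) had 16, 17, 5 and 12 counts in the wild-type replicates and 14, 9, 9 and 273 counts in the labelled knockout replicates, that is, 21.4 CPM in labelled knockout replicate 4 and at most 1.07 CPM in each other library. edgeR put the log2 fold change at 2.88 (SE 1.24, adjusted p = 0.994, exact permutation p = 0.571) and, without that library, at -0.14. DESeq2 gave Saa1 no p-value, and neither did the authors' deposited table. Of the 50-base stretches of Saa1, 31.5% also occur in other genes, nearly all in its paralog Saa2, which had 1 count, so the counts of the pair depend on how shared reads were assigned. Saa3 (ENSMUSG00000040026, 46711998 to 46715700, minus strand) had 5, 1, 2 and 0 counts in the wild-type replicates and 1, 4, 0 and 5 in the labelled knockout replicates, and a count of 0 allows up to 3 counts, 0.202 CPM in wild-type replicate 4 and 0.177 CPM in labelled knockout replicate 3, by counting error alone. Saa1 against Saa3 gave a Pearson r of 0.525 (exact permutation p = 0.170, adjusted p = 0.266) and a Spearman rho of 0.335 (exact permutation p = 0.410, adjusted p = 0.513, n = 8), and r was 0.159 without labelled knockout replicate 4 and wild-type replicate 3. The liver also makes serum amyloid A, and the 8 liver and colon markers summed to 34.8 to 70.2 CPM in the libraries labelled knockout and 38.3 to 56.4 CPM in wild type, highest in labelled knockout replicate 4, and their part was not tested. Among them Ttr and Apoh were at 3.37 and 0.783 CPM in that library, the lowest values of its group.

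Labelled knockout replicate 4, which held the Saa1 and Nos2 maxima and the highest Reg3b and Reg3g values, also stood apart in other lists. The 25 interferon response genes summed to 3605 CPM there and to 881 to 1149.5 CPM in the other 7 libraries, and the 12 enterocyte markers to 72820 CPM against 13973 to 32283. Its 6 stem cell markers summed to 1400 CPM, against 2251 to 3962 in the other libraries. The enterocyte apolipoproteins Apoa1 and Apoa4 were at 17330 and 2418 CPM there, against 2045 to 6961 and 440 to 1630 CPM elsewhere, whereas the stem cell genes Lgr5 (46.8 CPM) and Slc12a2 (326 CPM) were at 43.4 to 98.4 and 435 to 719 CPM elsewhere. The part of these differences in the member values was not tested. All 21 interferon response genes tested had a positive log2 fold change, with a median of 0.70, and that median was -0.23 without labelled knockout replicate 4.

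Lcn2 (ENSMUSG00000026822, chromosome 2, 32384633 to 32388252, minus strand) had 6, 4, 1 and 4 counts in the wild-type replicates and 1, 3, 26 and 9 counts in the labelled knockout replicates. Only labelled knockout replicates 3 and 4 lay above the wild-type range, at 1.53 and 0.705 CPM, and replicates 1 and 2 lay within it. Without a filter, edgeR put its log2 fold change at 1.41 (SE 0.78, adjusted p = 0.865). Neutrophils also hold lipocalin 2, and their 10 markers summed to 0.0673 to 0.551 CPM in the wild-type libraries and 0.177 to 1.17 CPM in those labelled knockout. Mpo, Elane and Ly6g had 0 counts in every library. Lcn2 against Nos2 gave a Pearson r of 0.487 (exact permutation p = 0.213, adjusted p = 0.266) and a Spearman rho of 0.619 (exact permutation p = 0.115, adjusted p = 0.192, n = 8). Without labelled knockout replicate 3 and wild-type replicate 3, r was 0.969 (exact permutation adjusted p = 0.0208, n = 6). Spearman's rho was then 0.83 (exact permutation adjusted p = 0.0972), not past the threshold, and Lcn2 had 1 to 9 counts in those 6 libraries. With group means removed r was 0.54 (exact permutation adjusted p = 0.251, n = 8).

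Retnlb (ENSMUSG00000022650, chromosome 16, 48816856 to 48818892, plus strand) was either clearly present or nearly absent. It was at 0, 15.3, 3.27 and 20.3 CPM in the wild-type replicates and at 0.514, 0.846, 12.8 and 0.861 CPM in the labelled knockout replicates. The 0 of wild-type replicate 1 allows up to 3 counts, 0.184 CPM, by counting error alone. Above 3 CPM were 3 wild-type libraries and 1 labelled knockout library, and the other 4 were below 1 CPM. edgeR put the log2 fold change at -1.34 (SE 1.32, adjusted p = 0.994, exact permutation p = 0.686), and -3.70 without labelled knockout replicate 3. Retnlb's SD on the log2 CPM scale was 3.35 in the wild-type group, higher than that of 99.97% of tested genes. The 9 markers of goblet cells, which make RELM-beta, summed to 7093 to 12180 CPM in the wild-type group and 7736 to 10666 CPM in the other, with 8835 in wild-type replicate 1, which had no Retnlb count. Among them Clca1, a secreted goblet cell protein, was at 768 CPM in wild-type replicate 1 and 736 in labelled knockout replicate 1, which had the lowest Retnlb values, and at 1692 to 3197 CPM in the 4 libraries with Retnlb above 3 CPM. It was at 1710 and 1226 CPM in labelled knockout replicates 2 and 4. Zg16, a goblet cell lectin, ran from 473 to 1419 CPM in the wild-type group and from 553 to 1644 CPM in the other. The part of goblet cells in the Retnlb values was not tested.

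**Figure D4:**
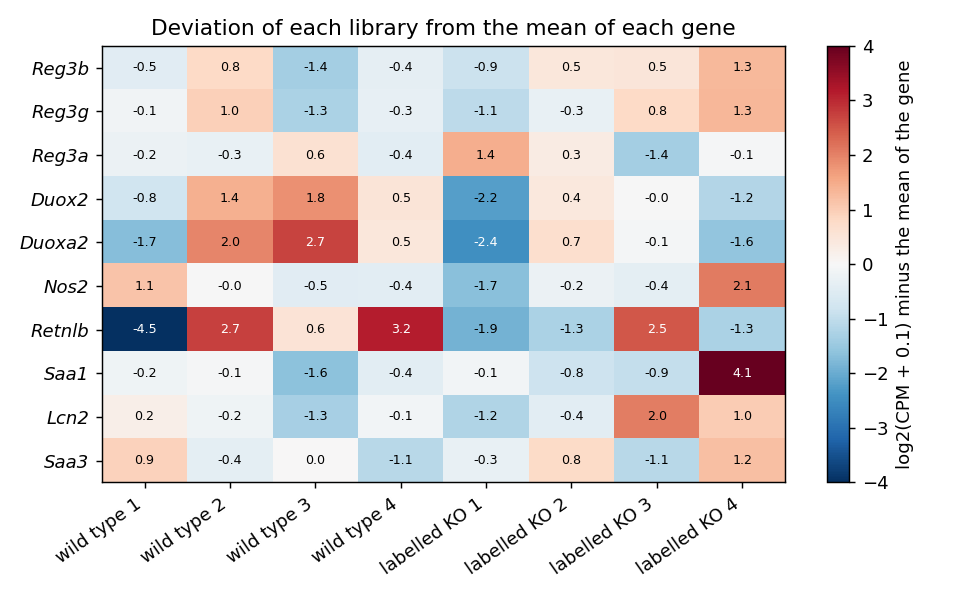
Log2(CPM + 0.1) of each gene in each library minus the mean of that gene over the 8 libraries (red above, blue below, values in the cells). Reg3b and Reg3g share 1 pattern of libraries and Duox2 and Duoxa2 another, and Saa1 and Nos2 are highest in labelled knockout replicate 4.

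Spread between libraries of 1 group was wide for most of these genes. The median tested gene had an SD of 0.23 on the log2 CPM scale in the wild-type group and 0.33 in the group labelled knockout. Reg3b (0.89 and 0.90), Reg3g (0.91 and 1.07), Duox2 (1.16 and 1.20) and Duoxa2 (1.95 and 1.41) exceeded it in both groups. In the wild-type group, 7 of the 8 genes tested had a larger SD than over 90% of tested genes, with Reg3a, at 80.8%, the exception.

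Transcripts of IL-22, IL-17 and IL-6 were at or near 0 in these crypt libraries, and other cytokines were measured. Il22, Il17f, Ifnb1 and Ifnl2 had 0 counts in every library, Il6 had 1 count, Il17a 3, Il5 4 and Il13 9 over all libraries. Ifng had 20 counts, Il25 35, Il4 36 and Tnf 128. Higher levels were those of Lif, a cytokine of the IL-6 family, at 5.61 to 10.5 CPM, of the alarmin Il33 at 4.84 to 19.2 CPM and of Il18 at 7.35 to 43.2 CPM. Of the 26 genes of IL-22, IL-6 and IL-17 signalling, 18 were tested, 0 passed the threshold, 14 were above 0 in log2 fold change and the median was 0.15, or -0.053 without labelled knockout replicate 4. Il6ra, the IL-6 receptor, had the smallest p of the list, at 4.996 ± 0.601 CPM in the group labelled knockout against 2.15 ± 0.80 CPM in wild type (SD, n = 4 per group), and edgeR put the log2 fold change at 1.21 (SE 0.30, adjusted p = 0.994). Its 4 labelled knockout libraries, at 4.48 to 5.85 CPM, all lay above the wild-type libraries, at 1.14 to 2.88 CPM. Fut2, the fucosyltransferase induced by IL-22, was at 5.42 ± 2.57 against 12.2 ± 7.62 CPM (SD, n = 4 each). Its edgeR log2 fold change was -1.17 (SE 0.67, adjusted p = 0.994), and wild-type replicate 1, at 1.16 CPM, was the lowest library. Log2 fold changes were 0.39 (SE 0.29) for the epithelial receptor Il22ra1, 0.041 (SE 0.19) for Il17ra, 0.19 (SE 0.21) for the transcription factor Stat3, 0.11 (SE 0.41) for its feedback inhibitor Socs3 and -0.14 (SE 0.27) for the NF-kappaB cofactor Nfkbiz, each with an edgeR adjusted p = 0.994. Il22ra1, Stat3 and Socs3 were all highest in labelled knockout replicate 4, at 142, 214 and 74.0 CPM.

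Of 22 genes of NF-kappaB and innate sensing, 18 were tested, 0 passed and 13 were above 0 in log2 fold change, with a median of 0.12, or 0.0062 without labelled knockout replicate 4. Tlr5, the flagellin receptor, had 0.86 (SE 0.44) and Relb, an NF-kappaB subunit, 0.48 (SE 0.28), both with an edgeR adjusted p = 0.994. Relb was at 143 CPM in labelled knockout replicate 4 and 49.9 to 80.7 CPM elsewhere. Interferon response genes gave Ifit3, an interferon-induced RNA-binding protein, at 1.80 (SE 0.98) and Rsad2, the antiviral viperin, at 1.68 (SE 0.87), with 0 of 21 past the threshold. Both were high in labelled knockout replicate 4 alone: Ifit3 was at 107 CPM there and 3.19 to 11.1 CPM in the other 7 libraries, and Rsad2 at 60.5 CPM against 3.16 to 8.88 CPM. The interferon-induced transcription factor Irf1, a known inducer of Nos2, had 0.025 (SE 0.15, edgeR adjusted p = 0.994).

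Type 2 genes were tested in 14 of 25 cases, and 0 passed, with 7 above 0, 7 below and a median of -0.062. Log2 fold changes were 0.16 (SE 0.24) for the type 2 receptor chain Il4ra and 0.079 (SE 0.12) for its transducer Stat6, both with an edgeR adjusted p = 0.994. Il17rb, the IL-25 receptor, was at 6.51 ± 1.22 CPM in the group labelled knockout against 9.31 ± 3.58 CPM in wild type (SD, n = 4 per group). The groups overlapped, and its edgeR log2 fold change was -0.51 (SE 0.28, adjusted p = 0.994).

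Among relatives of the 10 genes, 10 of 19 were tested, 0 passed, 2 were above 0 in log2 fold change and the median was -0.27. Reg1, a lectin gene of the same family, was at 7.78, 185, 51.3 and 106 CPM in the wild-type replicates and 43.7, 19.2, 40.7 and 4.93 CPM in the labelled knockout replicates (edgeR log2 fold change -1.69, SE 0.87, adjusted p = 0.994). Nox1, the colonic NADPH oxidase, was at 7.96 CPM in wild-type replicate 1 and at most 1.63 CPM elsewhere. Of 32 other epithelial antimicrobial and barrier genes, 22 were tested, 0 passed and 10 were above 0 in log2 fold change, with a median of -0.17. The smallest p values there belonged to Sprr2a2 and Sprr2a3, small proline-rich proteins with bactericidal activity. Sprr2a3, also in the type 2 list, was at 7.66, 151, 272 and 74.3 CPM in the wild-type replicates and 8.52, 50.8, 35.8 and 17.9 CPM in the labelled knockout replicates, which put the libraries in nearly the order seen for Duoxa2. Its log2 fold change was -2.16 (SE 0.89) and that of Sprr2a2 -2.34 (SE 0.87), both with an edgeR adjusted p = 0.994. The Sprr2a genes are near-identical copies, so the split of reads between them is uncertain.

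The genes whose log2 CPM most resembled 4 of the members over the 8 libraries were ranked among 11306 protein-coding genes by Pearson's r, as a description with no test, since the highest of so many values is high by selection. For Duox2 the closest were Mboat1 (r = 0.983), Duoxa2 (0.982), the endoplasmic reticulum gene Sdf2l1 (0.952) and the motor protein gene Myo1c (0.951). Nos2 was followed by the interferon-induced GTPase gene Gbp7 (0.972), then Fchsd1 (0.959), 4930503L19Rik (0.956) and Pi4kb (0.948). Reg3g resembled Zfp788 (0.961), Ep300 (0.958), Erich1 (0.940) and Smg1 (0.938), with Reg3b in 8th place. Retnlb was nearest to Pptc7 (0.956), Ampd3 (0.944), Cox7a2 (0.942) and Msantd4 (0.929). Some of these genes varied little: Ep300 ran from 105 to 136 CPM and Pi4kb from 31.7 to 38.1 CPM.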

How the data were processed

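Crypt RNA was taken up in TRIzol, and the library kit marks strand (per the labels' protocols). The submitters' processing notes list HISAT2 and DESeq2 with no version. The counting tool, its strand setting and the build are, in the sources used here, not given. The table the authors deposited holds raw counts and FPKM per gene and library, per the file headers. The authors' group means (a signal of normalised counts), log2 fold changes and p-values stand in the deposited table and are quoted only where named. Coordinates matched GENCODE M21 (GRCm38) exactly for 99.5% of the 55144 genes found in both, and for all 10 described here, so positions are given on that build.

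The test on counts was that of edgeR 4.0.16, run in R 4.3.3 (quasi-likelihood test, robust dispersion, TMM, filterByExpr, no covariate), labelled knockout against wild type, with Benjamini-Hochberg adjustment over all tested genes and a threshold of 0.05. The filter left 14897 genes. CPM use TMM library sizes and log2 CPM a prior count of 2. The SE is the absolute log2 fold change over the square root of F. Permutation tests were two-sided and exact, over the 70 arrangements of the 8 libraries for a single gene, or over all pairings for a correlation. Intervals and floors of 3 counts cover counting error only, since reads carry no molecular identifiers. Other settings tried were DESeq2 1.42.0, limma-voom (limma 3.58.1), RLE scaling, a replicate block, no expression filter, a stricter one (5 CPM or more in 4 libraries) and the omission of each library in turn. The members, lists and tests were chosen with earlier results of these data known. Genes named beyond the 10 were the 2 of each list with the smallest p, 9 regulators (1 of them is not reported here), and the 4 genes most like each of 4 members. Mcpt1, Mcpt2, C3, Slpi, the cytokine genes and the defining markers Adgre1, Mpo, Elane and Ly6g fall outside this rule and were chosen after their values were seen. The deposited heat map table, FPKM of a subset of genes, was not used here.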

Additional observations from a re-analysis of the deposited data

Results flagged for a closer look

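In each group of 4 libraries, the CPM of each of the 10 genes was examined for a library whose gap to its nearest neighbour took up most of the range of the group (above Dixon's 95% critical value for 4 samples). Of 20 groups, 4 held such a library. Chance gives about 1 in 20 for normally distributed values, a rate that was not measured for CPM, and all 4 were high values. On the log2(CPM + 0.1) scale, tried after seeing the data, 2 of 20 groups held such a library, those of Saa1 and Retnlb, while Nos2 and Reg3a were below the critical value. Saa1 was at 21.4 CPM in labelled knockout replicate 4 against 0.530 to 1.03 CPM in the other 3 libraries of its group. Nos2 was at 149 CPM in the same library against 11.02 to 29.7 CPM. Retnlb was at 12.8 CPM in labelled knockout replicate 3 against 0.514 to 0.861 CPM. Reg3a was at 96.1 CPM in wild-type replicate 3 against 46.7 to 53.4 CPM in the rest of the wild-type group.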

How the results depend on the processing

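None of the 10 genes was called under any of the 14 alternatives, and the smallest adjusted p among the 110 values of single genes was 0.576. Duox2, Duoxa2, Retnlb and Reg3b kept their sign in all of them. Over the fits that left out 1 library, the log2 fold change ran from -0.87 to 0.90 for Nos2, from -0.19 to 0.74 for Reg3a, from -0.0098 to 0.97 for Reg3g and from -0.14 to 3.27 for Saa1. The signs of Nos2, Reg3g and Saa1 turned without labelled knockout replicate 4 and that of Reg3a without labelled knockout replicate 1, and the cause was not tested. Nos2 was also below 0 with limma-voom (-0.15) and with the replicate block (-0.10). Reg3g against Duox2 gave r = 0.118 with group means removed. Over all genes, 5 were called with no filter and 24 with DESeq2, against 3. The labels do not say whether replicate numbers pair the libraries. Over the tested genes, same-numbered libraries had correlations of deviations from the group means of 0.0745, 0.0345, -0.388 and -0.0871. The replicate block called 2 genes and none of the 10. With it the edgeR log2 fold change was -1.49 (SE 0.20, adjusted p = 0.612) for Duox2 and -1.74 (SE 0.34, adjusted p = 0.999) for Duoxa2. The SE was 0.65 and 0.91 without the block. The block also left fewer degrees of freedom to estimate the spread. For both genes, every labelled knockout library lay below the wild-type library of the same number. How many of all tested genes do so was not counted, and the 2 genes varied together (Pearson's r of 0.982), so they are not separate observations. Saa3 and Lcn2 rested on 18 and 54 counts over all libraries, and without a filter their edgeR adjusted p were 0.967 and 0.865. Lcn2 counts in the libraries labelled knockout ran from 1 to 26.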

Other observations

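Some related genes stood out in single libraries and were picked after their values were seen. The mucosal mast cell proteases Mcpt1 and Mcpt2 were at 45.3 and 17.1 CPM in labelled knockout replicate 3, which was the only library of its group with Retnlb above 1 CPM, against 0.715 to 7.89 and 0.260 to 3.04 CPM in the other 7 libraries. Their log2 fold changes were 1.26 (SE 1.08) and 1.32 (SE 1.04), both with an edgeR adjusted p = 0.994. In wild-type replicates 1 to 4, Retnlb was at 0, 15.3, 3.27 and 20.3 CPM. Mcpt1 was at 6.68, 3.39, 7.89 and 3.77 CPM there and Mcpt2 at 2.70, 0.752, 3.04 and 1.68 CPM, both lowest in the 2 libraries with the most Retnlb. Wild-type replicate 1, which had no Retnlb count and the lowest Duox2 and Duoxa2 values of its group, was at 139 CPM for the complement gene C3 against 1.28 to 12.9 CPM in the other 7 libraries, and at 19.7 CPM for the protease inhibitor gene Slpi against at most 2.04 CPM. The stromal genes Dcn and Col3a1 were at 14.2 and 10.2 CPM there and at most 3.97 and 6.76 CPM elsewhere. The stromal and fat cell markers of that library summed to 31.8 CPM, against 0.336 to 14.2 CPM in the others, and their part in these values was not tested. Labelled knockout replicate 1 was lower still in Duox2 and Duoxa2 (49.5 and 6.39 CPM), with Retnlb at 0.514 CPM. It was at 1.69 CPM for C3, 0.147 for Slpi, 0.367 for Dcn and 0.882 for Col3a1.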
